A study of Mus musculus with 16 samples.

Results

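Fc gamma receptors bind the Fc part of immunoglobulin G and were followed here through 5 genes, the receptor genes Fcgr1, Fcgr2b, Fcgr3 and Fcgr4 and the gene of their signalling chain, Fcer1g. The members were taken by gene name: every probe whose RefSeq entry mapped to one of the 5 symbols was used, whatever its signal. That gave 6 probes among 56605, with 2 for Fcgr2b and 1 for each other gene, and the 5 genes stand among 17436 that were tested. All 6 probes passed the filter on dim probes and were well above background on 16 of 16 arrays.

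The study measured RNA of mouse cerebral cortex on 16 one-colour Agilent arrays. The 4 groups were irradiated mice labelled Neil1 knockout, sham-exposed mice labelled Neil1 knockout, irradiated wild-type mice and sham-exposed wild-type mice, with 4 mice each. Irradiated mice received 6 Gy of gamma radiation to the whole body at 0.74 Gy/min, and cortex was taken 20 h after the exposure. All were males of a C57BL/6 background, 28 to 42 weeks old by the labels; the wild types were littermates, the labels give the knockout as Neil1-/-, and neither the deleted part of the gene nor a cell type restriction is stated. The protocol gives 2 injections of BrdU, a marker of newly copied DNA, at 100 mg/kg, before the exposure and 2 h after it, without setting the sham mice apart. NEIL1 starts base excision repair at oxidised DNA bases, and the series was titled for its part in neurogenesis and neuroinflammation.

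Levels are log2 processed signals relative to the 75th percentile of the same array, so 0 is a signal at that percentile and each unit is a doubling. That percentile averaged 1333 ± 301 (SD, n = 4) intensity units in irradiated labelled knockouts and 1778 ± 343 in sham labelled knockouts, against 2301 ± 235 in irradiated wild types and 2415 ± 274 in sham wild types. The share of spots well above background lay between 62.4% and 72.4% on single arrays. All 10 markers of cortical neurons were well above background on every array. The Neil1 probe was 2.62-fold brighter in irradiated labelled knockouts than in irradiated wild types and 2.42-fold brighter in the sham pair (limma, adjusted p = 0.00725 and 0.0246). Whether that probe lies in the deleted part is not given, so it does not check the labels. All labelled knockout arrays lay on 1 slide and all wild-type arrays on the other, with 1 scan each, so genotype and slide cannot be told apart. Irradiated arrays occupied row 2 of each slide and sham arrays row 1, so irradiation and row cannot be told apart either.

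Of the receptors, FcγRI, FcγRIII and FcγRIV are activating: they signal through the common gamma chain encoded by Fcer1g, whose tyrosine motif (ITAM) is phosphorylated by Src-family kinases and then binds the kinase Syk. FcγRIIB is the inhibitory receptor of the family and carries its own motif (ITIM), which recruits the lipid phosphatase SHIP1, the product of Inpp5d. In the brain these genes are expressed mainly by microglia and by macrophages at the borders. Outside the mouse brain, FcγRIV is known from neutrophils, monocytes and macrophages.

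Fcgr4, which encodes the activating receptor FcγRIV, rose with irradiation. Its level was -5.04, -4.63, -4.83 and -4.63 in irradiated labelled knockouts, against -5.64, -5.70, -5.28 and -5.46 in sham labelled knockouts. In wild types it was -5.01, -4.89, -4.67 and -4.94 after irradiation, against -5.75, -5.15, -5.33 and -5.75 after sham. Each of the 8 irradiated arrays was above each of the 8 sham arrays, with the closest pair at -5.04 and -5.15. Averaged over the genotypes the increase was 0.68 on the log2 scale (SE 0.11, 95% interval 0.45 to 0.91), or 1.60-fold, with an adjusted p of 0.00975 (limma, Benjamini-Hochberg over 17436 genes). This was 1 of 5 members called in that contrast, in which 0.304% of all genes were called; 29 of the 53 called genes were higher (0.166% of all). Genes whose 8 irradiated arrays all lay above the 8 sham arrays also made up 0.166% of all.

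Within a genotype the size was similar but did not pass the adjustment over all genes. In labelled knockouts the difference was 0.74 (95% interval 0.41 to 1.07; 1.67-fold), with an adjusted p of 0.129 by limma. In wild types it was 0.62 (0.29 to 0.95; 1.53-fold), with an adjusted p of 0.526 by limma. The 4 irradiated and 4 sham arrays did not overlap in either genotype; genes with irradiated arrays all above sham arrays made up 1.16% of all in labelled knockouts and 0.866% in wild types. No member was called in either genotype, where 0.12% of genes were called in labelled knockouts and 0.0746% in wild types.

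The Fcgr4 signal was low. Its processed intensity, before scaling by the percentile, averaged 47.9 ± 5.62 in irradiated and 38.4 ± 4.66 in sham labelled knockouts, and 78.4 ± 10.6 in irradiated and 54.4 ± 12.5 in sham wild types (SD, n = 4 each). Unscaled, irradiated and sham arrays overlapped in each genotype: 42.9 to 53.7 against 34.6 to 44.8 in labelled knockouts, and 64.3 to 89.7 against 38.5 to 66.2 in wild types. Of the 988 genes whose mean level lay within 0.5 log2 units of that of Fcgr4, the median averaged irradiation difference was 0.0072, the 10th to 90th percentiles ran from -0.25 to 0.29, and 0.81% exceeded Fcgr4. The call was lost under 6 of 29 other settings, among them each other background correction or scaling of the signal. Normexp background correction gave 0.42 (adjusted p = 0.0817 by limma) and quantile normalization 0.72 (adjusted p = 0.121 by limma). The call was also lost without irradiated labelled knockouts 3 and 4, the 2 arrays with the lowest 75th percentile (0.65, adjusted p = 0.0844 by limma). The direction was the same in all 29.

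**Figure D1:**
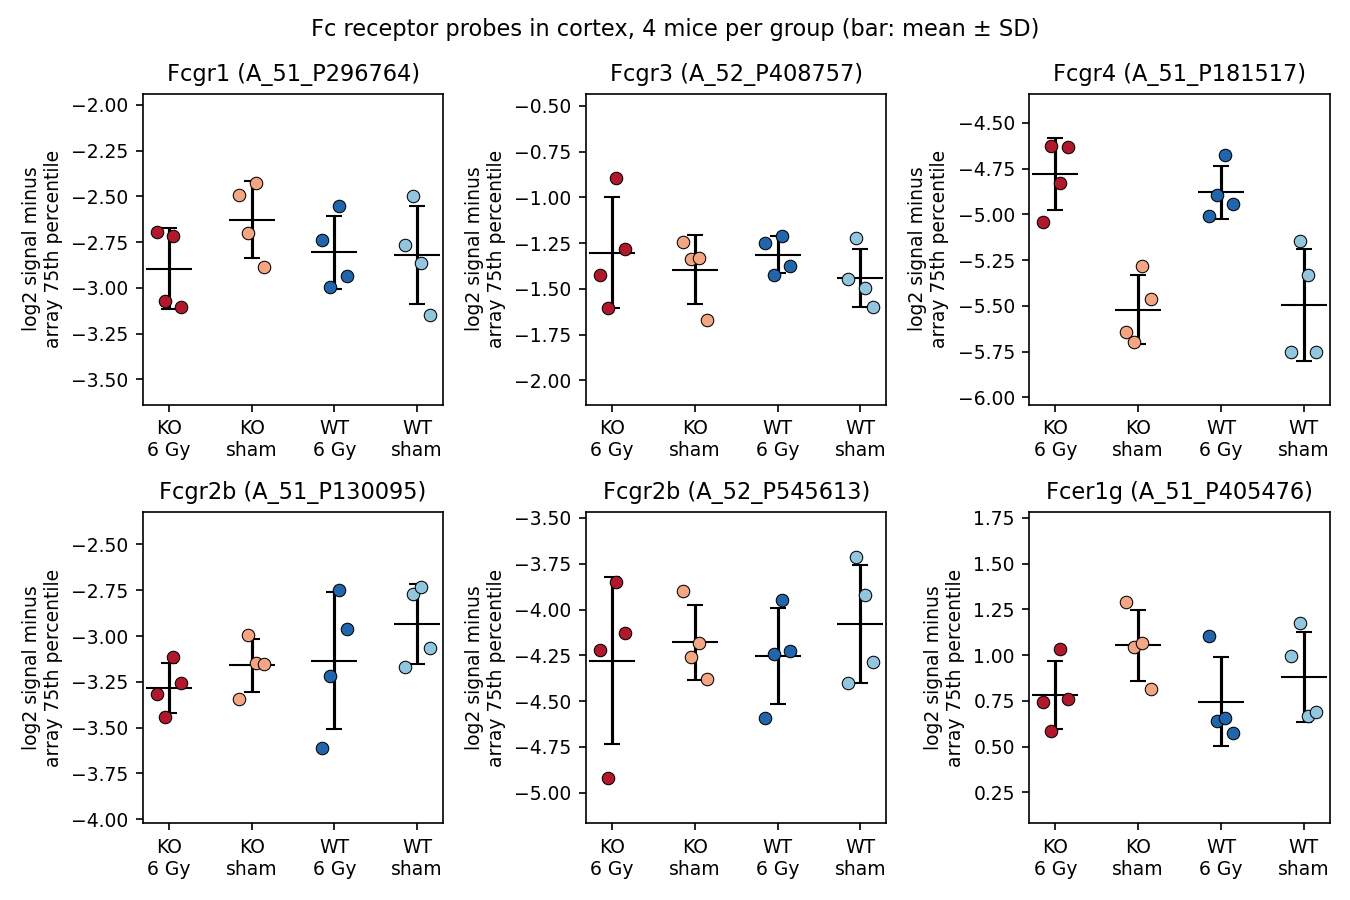
Log2 level of each of the 6 probes (relative to the 75th percentile of the array) on each of the 16 arrays, by group, irradiated before sham; points are arrays and bars are group means with SD (n = 4). The 8 irradiated Fcgr4 values, from -5.04 upwards, all lie above the 8 sham values, while the groups of every other probe overlap.

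Fcgr1, which encodes the high-affinity activating receptor FcγRI, was not called. Its level was -2.70, -3.07, -2.71 and -3.10 in irradiated labelled knockouts, against -2.49, -2.70, -2.43 and -2.89 in sham labelled knockouts. Irradiated wild types gave -2.74, -2.99, -2.55 and -2.93, against -2.77, -2.50, -2.87 and -3.15 in sham wild types. The groups overlapped in both genotypes, and the averaged difference was -0.13 (95% interval -0.37 to 0.11). The difference was -0.27 (-0.61 to 0.07) in labelled knockouts and 0.015 (-0.32 to 0.36) in wild types.

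Fcgr3, which encodes the low-affinity activating receptor FcγRIII, had levels of -1.42, -1.60, -0.89 and -1.28 in irradiated labelled knockouts, against -1.24, -1.34, -1.33 and -1.67 in sham labelled knockouts. In irradiated wild types they were -1.25, -1.42, -1.21 and -1.37, against -1.45, -1.22, -1.49 and -1.60 in sham wild types. The groups overlapped, and irradiated labelled knockout 3 was the highest of all 16 arrays. The averaged difference was 0.11 (95% interval -0.11 to 0.33).

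The promoters of these activating receptors are shown because they are the genes of the set whose windows held a searched motif, and because Fcgr4 was the called member. Each line holds the 250 bases before the transcription start from RefSeq (GRCm38.p6), 5′ to 3′ on the strand of the gene, with motif matches in capitals. Fcgr4 lies on the plus strand (chr1:171018676-171018925), Fcgr1 on the minus strand (chr3:96293970-96294219) and Fcgr3 on the minus strand (chr1:171059404-171059653).
Fcgr4: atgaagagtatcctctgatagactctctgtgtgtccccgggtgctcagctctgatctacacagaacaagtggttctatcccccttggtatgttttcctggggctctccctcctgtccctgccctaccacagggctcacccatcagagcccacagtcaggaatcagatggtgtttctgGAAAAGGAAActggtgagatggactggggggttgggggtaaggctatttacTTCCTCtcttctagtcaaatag
Fcgr1: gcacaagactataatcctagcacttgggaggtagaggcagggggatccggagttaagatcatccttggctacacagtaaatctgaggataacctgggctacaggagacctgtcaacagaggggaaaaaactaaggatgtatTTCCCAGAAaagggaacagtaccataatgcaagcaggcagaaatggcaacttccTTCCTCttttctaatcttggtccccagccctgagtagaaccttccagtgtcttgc
Fcgr3: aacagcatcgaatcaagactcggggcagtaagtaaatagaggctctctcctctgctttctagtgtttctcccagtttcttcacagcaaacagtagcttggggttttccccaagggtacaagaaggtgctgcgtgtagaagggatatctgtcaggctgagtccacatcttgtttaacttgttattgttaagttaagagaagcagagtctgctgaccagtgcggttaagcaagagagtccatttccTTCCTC

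Searched on both strands were the core bound by PU.1 (GAGGAA), the interferon gamma activated site (TTCNNNGAA), the interferon-stimulated response element core (GAAA, any 2 bases, GAAA) and the TATA box (TATAAA). The Fcgr4 window held the PU.1 core at -22 to -17 and the interferon-stimulated core at -73 to -64, counted back from the start. Fcgr1 held the PU.1 core at -55 to -50 and an interferon gamma activated site at -109 to -101, and Fcgr3 held the PU.1 core at -6 to -1. RefSeq gives Fcgr3 a second start, not shown here, from which the same core lies at -15 to -10. Among 32851 windows of the same length, 23.3% held the PU.1 core, 2.98% the interferon-stimulated core and 7.02% the interferon gamma site. The interferon gamma site reads alike on both strands and was counted once, and no other matches overlapped. The windows of Fcgr2b and Fcer1g held none of these letters, and the TATA box, found in 12.4% of windows, was in 0 of the 5 genes. A match describes letters in this window and is not evidence of binding.

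Fcgr2b, the inhibitory receptor, was read by 2 probes and was called by neither. The brighter probe gave -3.31, -3.44, -3.11 and -3.26 in irradiated labelled knockouts, against -3.34, -2.99, -3.15 and -3.15 in sham labelled knockouts. In wild types it gave -3.61, -3.22, -2.75 and -2.96 after irradiation, against -3.17, -2.77, -2.73 and -3.07 after sham. The irradiated and sham arrays overlapped, with an averaged difference of -0.16 (95% interval -0.41 to 0.09). The dimmer probe averaged -4.28 ± 0.46 in irradiated and -4.18 ± 0.20 in sham labelled knockouts, and -4.25 ± 0.26 in irradiated and -4.08 ± 0.32 in sham wild types (SD, n = 4 each). Its averaged difference was -0.14, of the same sign, and over the 16 arrays the 2 probes correlated with r = 0.65 (0.64 on deviations from group means).

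Fcer1g, the gamma chain on which the activating receptors depend, was not called. Its level was 0.75, 0.59, 1.03 and 0.76 in irradiated labelled knockouts, against 1.29, 1.04, 1.07 and 0.81 in sham labelled knockouts. In wild types it was 1.11, 0.64, 0.66 and 0.57 after irradiation, against 0.995, 1.18, 0.67 and 0.69 after sham. The groups overlapped, and the averaged difference was -0.20 (95% interval -0.44 to 0.03), with -0.27 (-0.60 to 0.06) in labelled knockouts and -0.14 in wild types.

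Fcgr4 was singled out after its values were seen, so its change relative to the other members on the same arrays is given as a description. The Fcgr4 signal relative to Fcgr1 was 0.81 log2 units higher in irradiated than in sham arrays, relative to Fcgr2b 0.84, relative to Fcgr3 0.57 and relative to Fcer1g 0.88 (means of 8 arrays against 8).

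**Figure D2:**
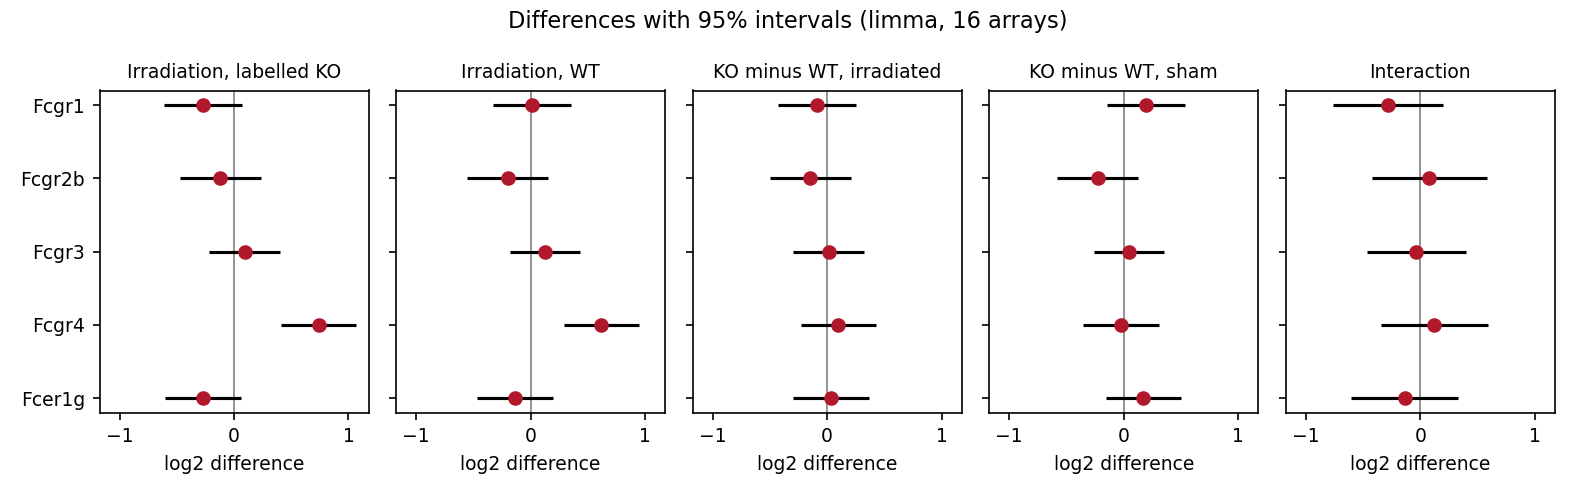
Log2 difference of each member with its 95% interval from limma, in 5 panels: irradiated minus sham in labelled knockouts and in wild types, labelled knockouts minus wild types after irradiation and in sham, and the interaction. The Fcgr4 intervals for irradiation, 0.41 to 1.07 and 0.29 to 0.95, lie above 0, and the others include 0.

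No member was called between genotypes in the fit reported here. After irradiation, labelled knockouts minus wild types gave -0.09 for Fcgr1, -0.15 for Fcgr2b, 0.01 for Fcgr3, 0.10 for Fcgr4 and 0.04 for Fcer1g, with adjusted p from 0.718 to 0.975 by limma; 1.18% of all genes were called. Under normexp background correction Fcgr4 was called there (0.40, adjusted p = 0.0367 by limma), in a fit that called 3378 genes, and under quantile normalization its difference was -0.13. Without irradiated labelled knockouts 3 and 4 the comparison called 4 genes, against 205 in the reported fit. In sham arrays the values were 0.19, -0.23, 0.05, -0.02 and 0.17 for Fcgr1, Fcgr2b, Fcgr3, Fcgr4 and Fcer1g, with adjusted p from 0.819 to 0.990, where 0.0516% of genes were called. The Fcgr4 means were close within each treatment: -4.78 ± 0.20 in irradiated labelled knockouts against -4.88 ± 0.15 in irradiated wild types, and -5.52 ± 0.19 in sham labelled knockouts against -5.50 ± 0.31 in sham wild types (SD, n = 4 each). From high to low the order was irradiated labelled knockout, irradiated wild type, sham wild type and sham labelled knockout, in which the first 2 and the last 2 did not differ beyond their spread. The difference of the irradiation response between genotypes was 0.12 for Fcgr4 (95% interval -0.34 to 0.59) and -0.28 for Fcgr1 (-0.77 to 0.20). The interaction called 0 of 17436 genes by limma (0%), while 222 genes (1.27%) had an unadjusted p under 0.05; no member was among them.

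Of the other genes of the pathway lists, 1 was called in the averaged irradiation contrast. It was Cd79b, an ITAM-bearing signalling subunit of B cells: among 7 tested ITAM adaptors it fell by 0.74 ± 0.11 (SE; adjusted p = 0.00409 by limma), 4 others were above 0 and 2 below. Tyrobp, which pairs with Trem2 on microglia, gave -0.13 and Trem2 -0.19, and neither was called. The kinases and effectors of activating signalling had 12 of 40 tested genes above 0 and 28 below, a median of -0.08 against 0.0043 over all genes, and 0 called. Its smallest p values belonged to Lat2, an adaptor (-0.32), Pik3cd, a catalytic subunit of phosphoinositide 3-kinase (0.43), and Fyn, a Src-family kinase (-0.22), with adjusted p from 0.467 to 0.668 by limma. Syk, the kinase that binds the phosphorylated chain, gave -0.02.

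On the inhibitory side no gene was called. Of 19 phosphatases and inhibitory receptors 9 were above 0 and 10 below (median -0.03), with 0 called; Lair1, a collagen-binding inhibitory receptor, gave -0.29, Cd300a 0.35 and Ptpn6, the phosphatase SHP-1, -0.32. Inpp5d, the phosphatase that FcγRIIB recruits, gave -0.16. Other Fc receptors had 3 of 9 tested genes above 0 and 6 below (median -0.05, 0 called), among them Fcer2a (-0.69), Fcrls (-0.23), a receptor-like gene of microglia, and Trim21 (0.24), a cytosolic antibody receptor. Fcgrt, the neonatal Fc receptor, gave -0.05. The 10 tested receptors in a list meant for partners of the gamma chain had 6 above 0 and 4 below (median 0.05, 0 called), led by Pirb at 0.46, although Pirb itself is an inhibitory receptor.

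Of 13 immunoglobulin and complement genes 4 could be tested, Jchain, C1qa, C1qb and C1qc. The immunoglobulin heavy and light chain genes of the list had no named probe and were not tested. Jchain, the joining chain of polymeric antibodies, gave -0.36 with no call. Transcription factors of the myeloid lineage had 6 of 9 above 0 and 3 below (median 0.06), with 0 called; Irf8 gave -0.25, Ikzf1 -0.31 and Spi1, the gene of PU.1, 0.07. At an unadjusted p under 0.05 by limma, which 871 of 17436 genes (5%) had, there were 1 higher and 6 lower among the 40 kinases and effectors, 1 and 3 among the 19 phosphatases and inhibitory receptors, and 0 and 3 among the 9 transcription factors. There were 1 and 0 among the 10 receptors listed as chain partners and 0 and 2 among the 7 ITAM adaptors. The 9 other Fc receptors and the 4 immunoglobulin and complement genes had 0 and 0. Of the markers, 1 and 6 were among the 20 for microglia, 1 and 1 among the 8 for monocytes, and 0 and 0 among the 9 for neutrophils. Between genotypes after irradiation, Cd247, the zeta chain of the T cell receptor, was 2.20 ± 0.33 (SE) higher in labelled knockouts than in wild types, with an adjusted p of 0.00994 by limma. The number of genes called in that comparison varied widely between settings, from 4 to 3378. The 7 tested ITAM adaptors, Cd247 among them, had 3 above 0 and 4 below there, with a median of -0.07. In the sham pair that list had 2 above 0 and 5 below, with 0 called, and its largest difference was 1.78.

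**Figure D3:**
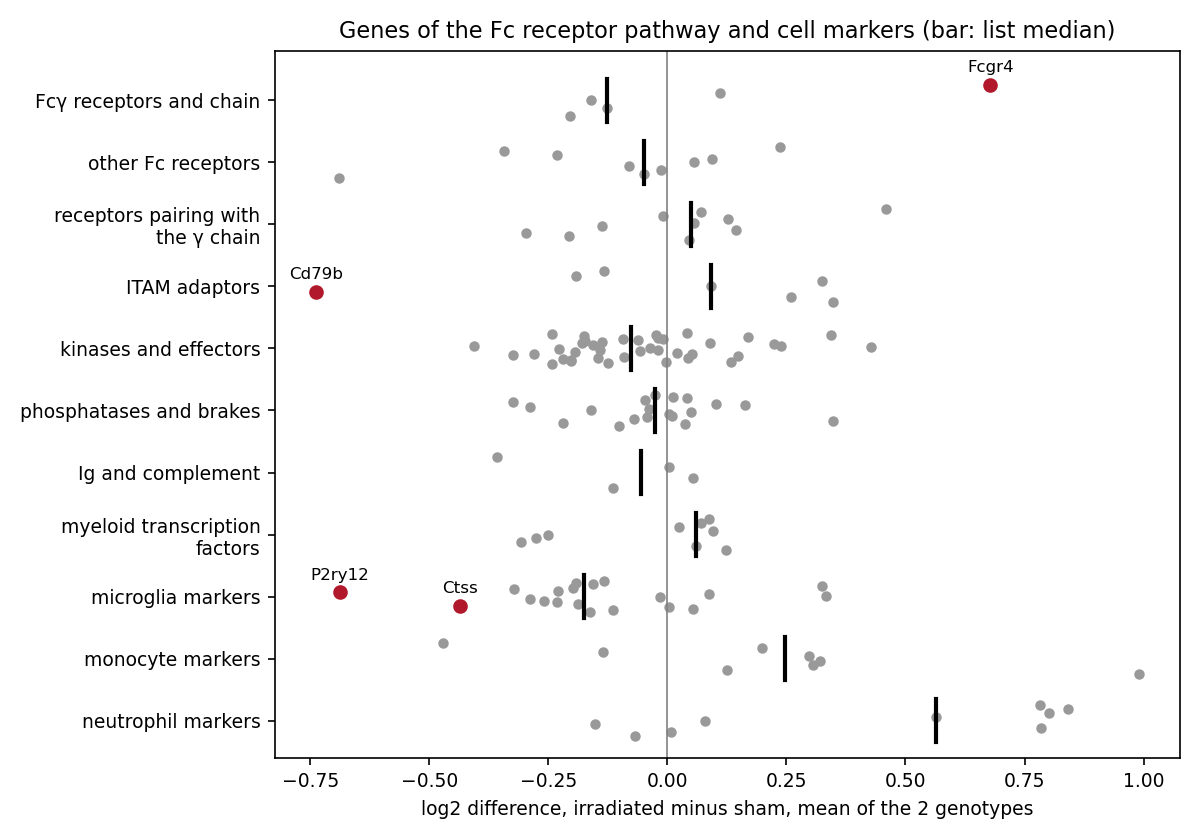
Irradiated minus sham log2 difference averaged over genotypes for each tested gene of the pathway lists and of the microglia, monocyte and neutrophil markers, in a row per list; black bars are list medians and large red points called genes. Fcgr4 at 0.68 is the called gene above 0, and Cd79b at -0.74, P2ry12 at -0.69 and Ctss at -0.43 are the called genes below 0 in these lists.

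Microglia markers were mostly lower on irradiated arrays, and 2 of them fell. In cortex as a whole, fewer cells of a type and less RNA per cell cannot be told apart. The mean level of 20 microglia markers ran from 0.93 to 1.06 in irradiated labelled knockouts and from 1.04 to 1.20 in sham labelled knockouts, and from 0.996 to 1.14 in irradiated and 1.11 to 1.32 in sham wild types. The list had 5 genes above 0 and 15 below (median -0.18), of which P2ry12 (-0.69 ± 0.07) and Ctss (-0.43 ± 0.08) fell (SE; adjusted p = 0.000219 and 0.0461 by limma). P2ry12, a purine receptor of resting microglia, fell in each genotype, by 0.76 in labelled knockouts and 0.62 in wild types (adjusted p = 0.00525 and 0.0357 by limma). Border macrophage markers had a median of 0.0077 over 9 genes, with 0 called.

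Markers of neutrophils and monocytes had medians above 0 in the averaged contrast, and none of them was called. The 9 tested neutrophil markers had 7 above 0 and a median of 0.56. Their mean levels ran from -4.81 to -3.61 in irradiated and -5.98 to -3.09 in sham labelled knockouts. In wild types they ran from -4.57 to -4.22 after irradiation and -4.94 to -4.03 after sham. Of these 9 markers, 5 to 8 were well above background on irradiated and 5 to 9 on sham labelled knockout arrays. On wild-type arrays 9 were so after irradiation and 8 to 9 after sham. The 8 tested monocyte markers had 6 above 0 and a median of 0.25, with mean levels from -1.83 to -1.43 in irradiated and -2.24 to -1.42 in sham labelled knockouts, and from -1.95 to -1.46 in irradiated and -1.96 to -1.59 in sham wild types. The level of Fcgr4 correlated over 16 arrays with r = 0.29 with the neutrophil mean and 0.44 with the monocyte mean, and with r = 0.036 and 0.15 on deviations from group means. Natural killer and T cell markers had a median of 0.18 over 6 tested genes, and B cell markers -0.12 over 4, where Cd79b was the called gene. Gp9, a platelet glycoprotein, fell by 0.90 in the average (adjusted p = 0.00504 by limma). The 5 tested platelet and megakaryocyte markers, Gp9 among them, had 3 above 0 and 2 below, with a median of 0.06. Endothelial markers had a median of -0.18 over 8 genes, with 0 called. Slc1a2, a glutamate transporter of astrocytes, was 0.58 higher in irradiated labelled knockouts than in irradiated wild types (adjusted p = 0.0437 by limma). The reported fit called 205 genes there, and the fit without irradiated labelled knockouts 3 and 4 called 4, against 3378 under normexp. In that comparison the 7 astrocyte markers, Slc1a2 among them, had 3 above 0 and 4 below, with a median of -0.0055. Ccr2, a defining monocyte marker, did not pass the filter on dim probes, and Ly6g, a defining neutrophil marker, had no named probe. The part of these cells in the Fcgr4 result was not tested.

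**Figure D4:**
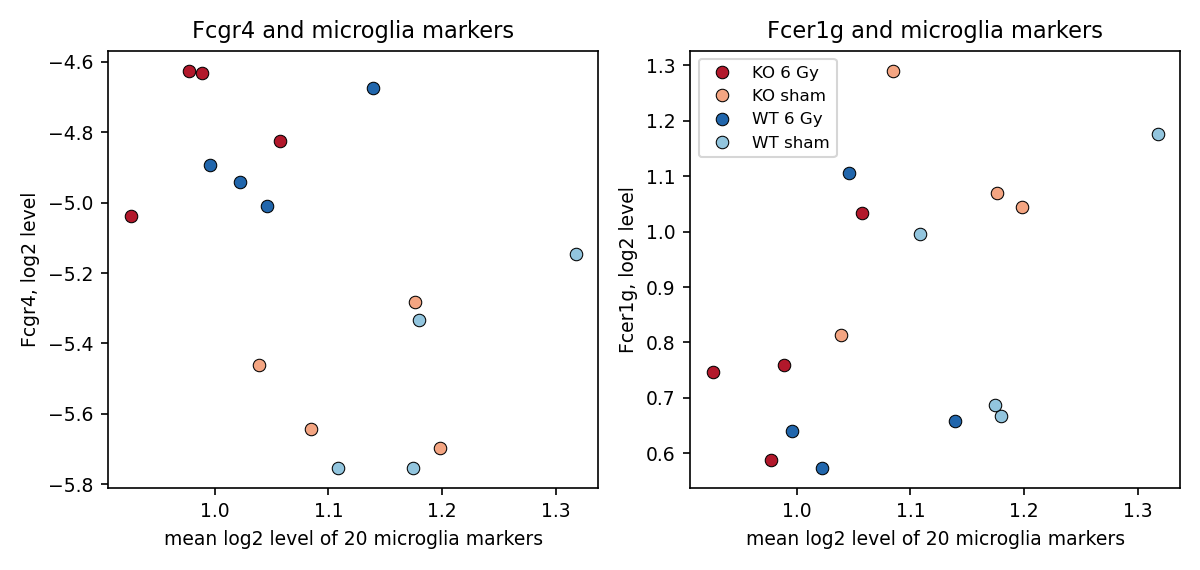
Level of Fcgr4 (left) and Fcer1g (right) against the mean log2 level of 20 microglia markers, 1 point per array, coloured by group. Irradiated arrays hold the higher Fcgr4 levels, at -5.04 or above, at marker means from 0.93 to 1.14.

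The members did not vary together as 1 unit. Over 16 arrays, Fcgr1 and Fcer1g correlated with r = 0.71 and on deviations from group means with 0.66, Fcgr3 and Fcer1g with 0.51 and 0.77, and Fcgr1 and Fcgr3 with 0.53 and 0.70. Fcgr4 and Fcer1g gave -0.42 and -0.06, and Fcgr2b and Fcer1g -0.18 and -0.31. With the microglia mean, Fcgr4 gave r = -0.47 over all arrays and 0.54 on deviations from group means. These are descriptions over arrays that share slide, row and group. Replicate number is also slide column in every group, so column remains in the deviations from group means.

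The genes most like each member over the 16 arrays were sought among 15516 genes well above background on every array. For Fcgr4 they were Aen (r = 0.90), Ephx1 (0.89), Dglucy (0.89), Mapkapk3 (0.88) and Mgmt (0.88), with r from 0.42 to 0.62 on deviations from group means. For Fcer1g they were Lrrc4b (0.93), Tmem119 (0.92), Ptpn6 (0.91), Mbd3 (0.91) and Rac2 (0.91), with 0.90 to 0.95 on deviations. Slide column remains in these deviations too, and its part was not tested. Fcgr1 was closest to Gsg1l (0.78) and Vcam1 (0.77), Fcgr2b to Grrp1 (0.85) and Cfhr2 (0.83), and Fcgr3 to Cops6 (0.91) and Stx7 (0.90). Aen encodes a nuclease known as a p53 target, Ephx1 an epoxide hydrolase, Mgmt a repair enzyme for alkylated guanine, and Tmem119 is a microglia marker.

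Fcgr2b, Fcgr4, Fcgr3 and Fcer1g lie together on chromosome 1 in that order, and Fcgr1 lies on chromosome 3. Other protein-coding genes lie only between Fcgr3 and Fcer1g, while each interval holds non-coding genes. Of the tested genes from Fcgr2b to Fcer1g, Fcgr4 was the one called in the averaged contrast.

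**Figure D5:**
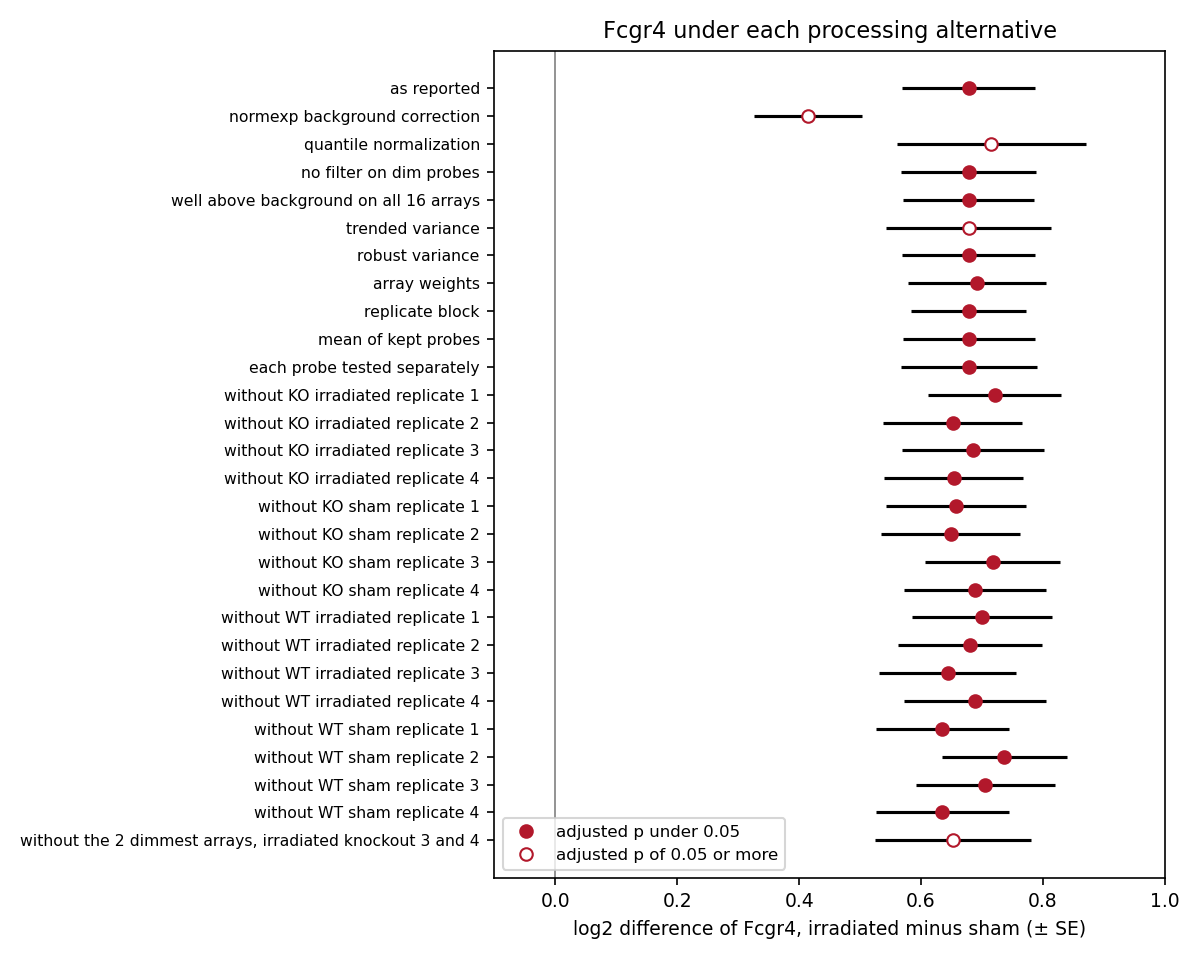
Averaged irradiation difference of Fcgr4 under the processing alternatives on the log2 scale, with bars of ± SE; filled points mark an adjusted p under 0.05 and open points one at or above it. All values lie above 0, from 0.42 to 0.74, and 4 of the points are open. The z-scores per array and the deposited scores, which are on other scales and also lost the call, are not shown.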

How the data were processed

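Per the file headers, each array was scanned in 1 channel at 3 micron resolution and read by the authors with Agilent Feature Extraction 12.0.3.1, whose background-subtracted processed intensity was used. A second table of the authors holds a deposited score per feature; its columns had mean 0, SD 1 and the same median of -0.08. Its making is not described in the labels or headers, and it served as an alternative.

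Levels were log2 of the processed signal minus the array's 75th percentile. Outlier spots were left out, probes were kept if well above background on at least 4 of 16 arrays (39589 of 56605), and genes with values on 12 or more arrays were represented by their brightest kept probe. Names came from RefSeq accessions (32994 of 35886 matched, GRCm38.p6). The 17436 genes were fitted with limma 3.58.1 (R 4.3.3) with a mean per group and 12 residual degrees of freedom, two-sided, adjusted by Benjamini-Hochberg over all genes, and called at 0.05. The averaged irradiation contrast was also run on simulated data of 17436 genes with independent normal noise. With 50 changed genes per size, 23 were called at log2 0.5 and 43 at 1, with 11 unchanged genes called. The contrasts within a genotype, between genotypes and the interaction were not examined in this way.

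The members and gene lists were chosen with earlier results of these data known. The text names every member and probe, Neil1, the called members of each list and otherwise up to 3 with the smallest p, and the genes most like each member; Syk, Tyrobp, Trem2, Inpp5d, Spi1 and Fcgrt were added for their roles. The alternatives were other background corrections, normalizations, filters, variances, weights, probe rules, the replicate block, fits of 2 groups, and leaving out arrays. The number of arrays limits the precision.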

Additional observations from a re-analysis of the deposited data

Results flagged for a closer look

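In irradiated wild types, the Fcer1g level of replicate 1 (1.106) stood apart from the other 3, which lay between 0.57 and 0.66; its gap to the nearest was 0.842 of the range of the group. Of 24 groups checked this was the 1 past the critical value, and chance gives about 1 in 20.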

How the results depend on the processing

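The averaged irradiation difference of Fcgr4 was above 0 under all 29 alternatives and called under 23, with adjusted p by limma from 0.00573 to 0.136. Of the alternatives, 16 left out 1 array each and kept the call. Each alternative with another background correction or another scaling of the signal lost the call. The members called fell to 0, against 1, under normexp (0.42), quantile normalization (0.72), z-scores per array (0.15 SD units, adjusted p = 0.136), trended variances (0.68, adjusted p = 0.0551), the deposited scores (0.19 score units, adjusted p = 0.129) and without irradiated labelled knockouts 3 and 4 (0.65). The cause was not tested. Leaving out each array in turn kept 1 to 1 member called, with differences from 0.64 to 0.74. Between genotypes after irradiation, normexp called 1 member, Fcgr4 (0.40, adjusted p = 0.0367), against 0, in a fit that called 3378 genes against 205. Of 890 member values under alternatives, 883 stayed on their side of the threshold, and 47 uncalled ones changed sign. In the reported fit 1 member result was called, so values that stayed uncalled make up most of this count. Those that crossed the threshold were all of Fcgr4, 6 in the averaged irradiation contrast and 1 between genotypes after irradiation. Over all genes the averaged contrast called 53, and 87 with array weights. Same-numbered arrays had deviations correlated from -0.60 to 0.52, so the numbers were not read as pairs; with the replicate block, which is also slide column, 1 member was called, Fcgr4 at 0.68 (adjusted p = 0.011). Fits of 2 groups cannot give the average or the interaction.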
